A study of Drosophila melanogaster with 16 samples.

Results

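The gene expression of the midgut of female Drosophila melanogaster with overexpressed gain-of-function Raf was set against that of wild type midgut, over all genes measured. The members are the 4 arrays named RafGOF and the 4 arrays named wild type, which were chosen by those names, and they are 8 of the 16 arrays of the series. The RafGOF flies overexpressed Raf in a gain-of-function form, and the wild type flies carried no transgene that the labels name. The other 8 arrays held midguts with the same Raf form together with a dominant-negative Notch (RafGOF NotchDN, 4 arrays) or the intracellular domain of Notch (RafGOF NotchIC, 4 arrays). The labels used here name neither the driver that expressed Raf, nor the cells in which it was expressed, nor the age of the flies or the time under expression. Whether a group's arrays came from different flies, pools or crosses is not given in them either, so a p-value here stands for the spread between these arrays alone, which may be technical. The series title speaks of intestinal stem cells, whereas the tissue is the whole midgut, and in such RNA fewer cells of a type and less RNA per cell cannot be told apart.

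Raf is the kinase that passes the signal of Ras on to MEK and ERK. In the fly midgut this cascade acts in intestinal stem cells downstream of the EGF receptor, where it promotes their division. Stem cells give rise to enteroblasts, which become enterocytes that digest and absorb food, and to enteroendocrine cells that secrete peptide hormones. Signalling through Notch steers a stem cell daughter towards the enterocyte fate.

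Each value is an RMA signal on the log2 scale, and a difference is the RafGOF mean minus the wild type mean on that scale, given with its standard error (SE). A gene rose or fell if its probe set passed an adjusted p under 0.05 in limma, with Benjamini-Hochberg adjustment over all 18769 probe sets. Array medians were 5.49 to 5.68 in RafGOF and 5.57 to 5.67 in wild type. Signals correlated across probe sets at 0.979 to 0.989 within RafGOF and at 0.985 to 0.995 within wild type, and at 0.953 to 0.979 between the groups. Some arrays stood apart. Those numbered 2 deviated together from their group means (r = 0.594 over probe sets between RafGOF array 2 and wild type array 2, against 0.127 to 0.308 for the other numbers). RafGOF array 1 lay nearest to wild type in many of the gene groups, and RafGOF array 4 stood alone in several genes of infection and stress. No probe set was named for Raf or for Notch alone, so the overexpressed gene is given no value. Trypsin genes, which mark the gut, had signals among the highest of both groups, with betaTry at 14.34, 13.91, 13.93 and 13.19 on the RafGOF arrays, against 14.68, 14.70, 14.73 and 14.76 on the wild type arrays.

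Of the 18769 probe sets, in RafGOF 2104 were higher (11.2%) and 1474 lower (7.85%), 3578 in all (19.1%). At least 2-fold differences were called in 552 (2.94%) and 592 (3.15%). Among 11982 genes with 1 probe set each, 1787 rose (14.9%) and 1214 fell (10.1%), 3001 in all (25.0%), and the median difference of all genes was -0.0032. At least 2-fold, 450 genes rose (3.76%) and 500 fell (4.17%). All 4 RafGOF arrays lay above all 4 wild type arrays in 15.6% of the genes and below them in 10.7%. Without the arrays numbered 2 of all groups, 2111 probe sets passed upward and 1334 downward. With the replicate number as a block they were 3220 and 2289. The shares of genes that rose and that fell differed along the range of signal. Of the 885 genes with a wild type mean of 10 to 12, 16.5% rose and 30.4% fell, and of the 283 genes above 12, 11.3% rose and 34.6% fell. Of the 3277 genes with a wild type mean of 6 to 8, 22.9% rose and 8.88% fell, and of the 2374 genes of 8 to 10, 23.5% rose and 16.9% fell. The ends of the scale may limit such differences. Of the 1130 genes under 4, 0 fell by at least 2-fold, and 2 of the 283 above 12 rose by as much. The signal of a probe set also depends on its sequence, so these classes order probe sets and not amounts of RNA, and a class by the wild type level uses the same wild type arrays as the difference.

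**Figure D1:**
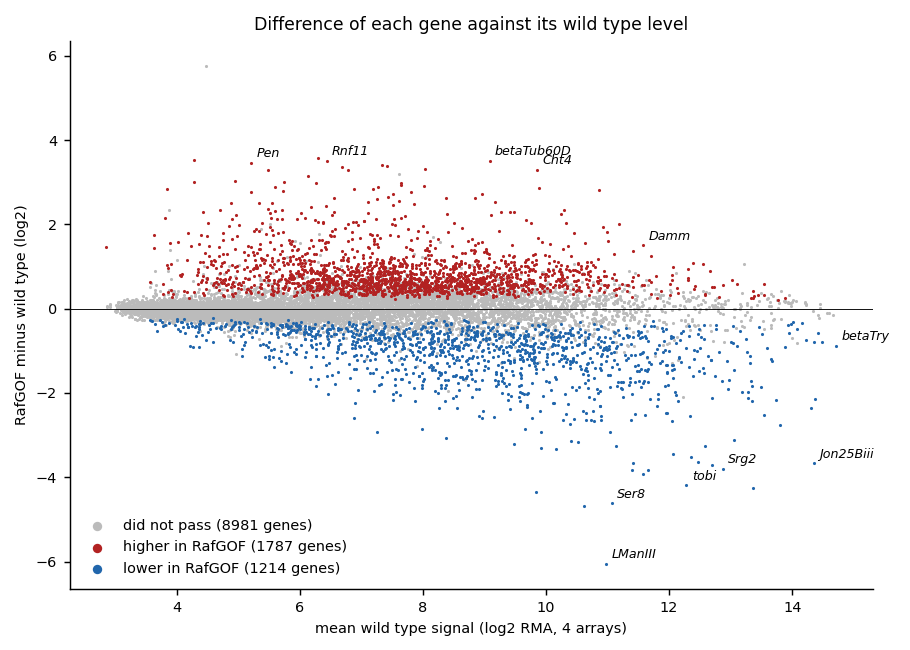
Difference of each of the 11982 genes (RafGOF minus wild type, log2, vertical axis) against its mean wild type signal (log2, horizontal axis); each point is a gene, coloured by whether it was higher (1787), lower (1214) or did not pass (8981). The genes that fell tend to lie further to the right than those that rose, with wide overlap.

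In the Ras and MAPK cascade, most measured ligands and feedback regulators of the receptors rose. Kinase cascade genes rose in a share near that of all genes. Of the 10 measured ligands and ligand-processing factors, 7 rose and 0 fell (14.9% and 10.1% of all genes), with a median difference of 0.82. The signal of spi, the EGF-like ligand Spitz, was 10.14, 10.84, 10.72 and 10.50 on the RafGOF arrays, against 8.78, 8.50, 8.73 and 8.51 on the wild type arrays. All 4 RafGOF arrays lay above all 4 wild type arrays, and the difference was 1.92 ± 0.18 (3.78-fold, adjusted p = 4.02e-06, limma). Star (S), which escorts Spitz through secretion, rose by 1.08, and the EGF receptor ligand Krn by 0.42. Ligands of the other receptor tyrosine kinases rose as well: Pvf2 by 1.75 and Pvf1 by 1.24, both ligands of the PDGF and VEGF receptor homologue Pvr, and ths by 0.56 and bnl by 1.59, both FGFs. For bnl a second probe set rose by 0.81 and the third did not pass. pyr, grk and Pvf3 did not pass, with differences of -0.35, -0.24 and -0.03. S did not pass without RafGOF array 3 or 4 or wild type array 1 or 3 (adjusted p up to 0.0766), and Krn did not pass without RafGOF array 3 or 4 or wild type array 2 or 3 (adjusted p up to 0.0708).

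Of 12 receptors and adaptors, 4 rose and 1 fell (median 0.24), or 33.3% and 8.33%, against 14.9% and 10.1% of all genes. Shc, an adaptor of receptor tyrosine kinases, had signals of 9.14, 9.49, 9.67 and 9.71 on the RafGOF arrays, against 8.52, 8.36, 8.11 and 8.39 on the wild type arrays, and rose by 1.15 ± 0.19. The groups did not overlap in Shc. The adaptor dos rose by 0.85, the Ras GTPase-activating protein vap by 0.82 and the receptor tor, dim in both groups, by 0.58. The FGF receptor htl, which is known from muscle and its precursors, fell by 0.38. The EGF receptor gene itself did not pass without the block (0.42 ± 0.29, adjusted p = 0.384 in limma) and was higher with the replicate number as a block (adjusted p = 0.00701). The difference did not pass in Pvr (0.20), drk (0.29) or Sos (0.08). Among 7 measured genes of the kinase cascade, 1 rose and 0 fell (3 and 0 with the replicate block). That is 14.3% and 0%, against 14.9% and 10.1% of all genes. The gene that rose was 14-3-3epsilon, a protein that binds phosphorylated Raf, with a difference of 1.05 ± 0.15. The MEK gene Dsor1 (0.08) and the scaffold genes ksr (0.12) and cnk (0.21) did not pass. vap did not pass without RafGOF array 2, 3 or 4 or wild type array 1, 3 or 4 (adjusted p up to 0.143), and htl did not pass without RafGOF array 2, 3 or 4 or wild type array 1, 2, 3 or 4 (adjusted p up to 0.168).

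Of 9 feedback regulators, 5 rose and 0 fell, or 55.6% and 0%, against 14.9% and 10.1% of all genes. aos, the secreted inhibitor of the EGF receptor and a classical target of its signalling, had signals of 7.38, 8.82, 7.71 and 7.95 on the RafGOF arrays, against 5.29, 5.49, 4.96 and 5.10 on the wild type arrays. Every RafGOF array was above every wild type array, highest on array 2, and the difference was 2.76 ± 0.31 (6.76-fold, adjusted p = 1.92e-05). rau, which prolongs signalling of receptor tyrosine kinases, rose by 2.13 ± 0.23. Mkp3, the phosphatase of ERK, rose by 1.98 ± 0.25 and on its second probe set by 1.92. sty, the inhibitor Sprouty, rose by 1.40 ± 0.25 and by 1.15 on its second probe set. Cbl, a ubiquitin ligase for receptors, rose by 0.54. kek1, kek5, ed and fred did not pass, with differences of 0.02, 0.27, -0.32 and 0.02. Cbl did not pass without RafGOF array 2 or 3 or wild type array 1 or 2 (adjusted p up to 0.0675), and its second probe set did not pass (0.49).

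Of 12 transcription factors and targets at the end of the cascade, 5 rose and 0 fell (41.7% and 0%). Among all genes 14.9% rose and 10.1% fell. With the replicate block 6 rose and 2 fell, and 3 rose without RafGOF array 2, 3 or 4 or wild type array 3. edl, which relieves the repressor Yan and is itself induced by the pathway, had signals of 9.69, 10.46, 10.46 and 10.11 on the RafGOF arrays, against 7.76, 7.47, 7.52 and 7.72 on the wild type arrays. The groups lay more than 1 apart, and edl rose by 2.56 ± 0.24 (5.90-fold, adjusted p = 4.75e-06). The Jun gene Jra rose by 1.10 ± 0.20, the Fos gene kay by 0.82 ± 0.26 and Ets21C by 0.89 ± 0.27. The other probe set of kay, which was dim, did not pass (0.10). In kay and in Ets21C the lowest RafGOF array, array 1, lay within the wild type range. kay did not pass without RafGOF array 2, 3 or 4 or wild type array 2 or 3 (adjusted p up to 0.124), and Ets21C did not pass without RafGOF array 2, 3 or 4 or wild type array 3 or 4 (adjusted p up to 0.0944). The repressors aop (0.28) and cic (-0.42) did not pass, and aop was higher with the replicate block (adjusted p = 0.0325, limma).

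**Figure D2:**
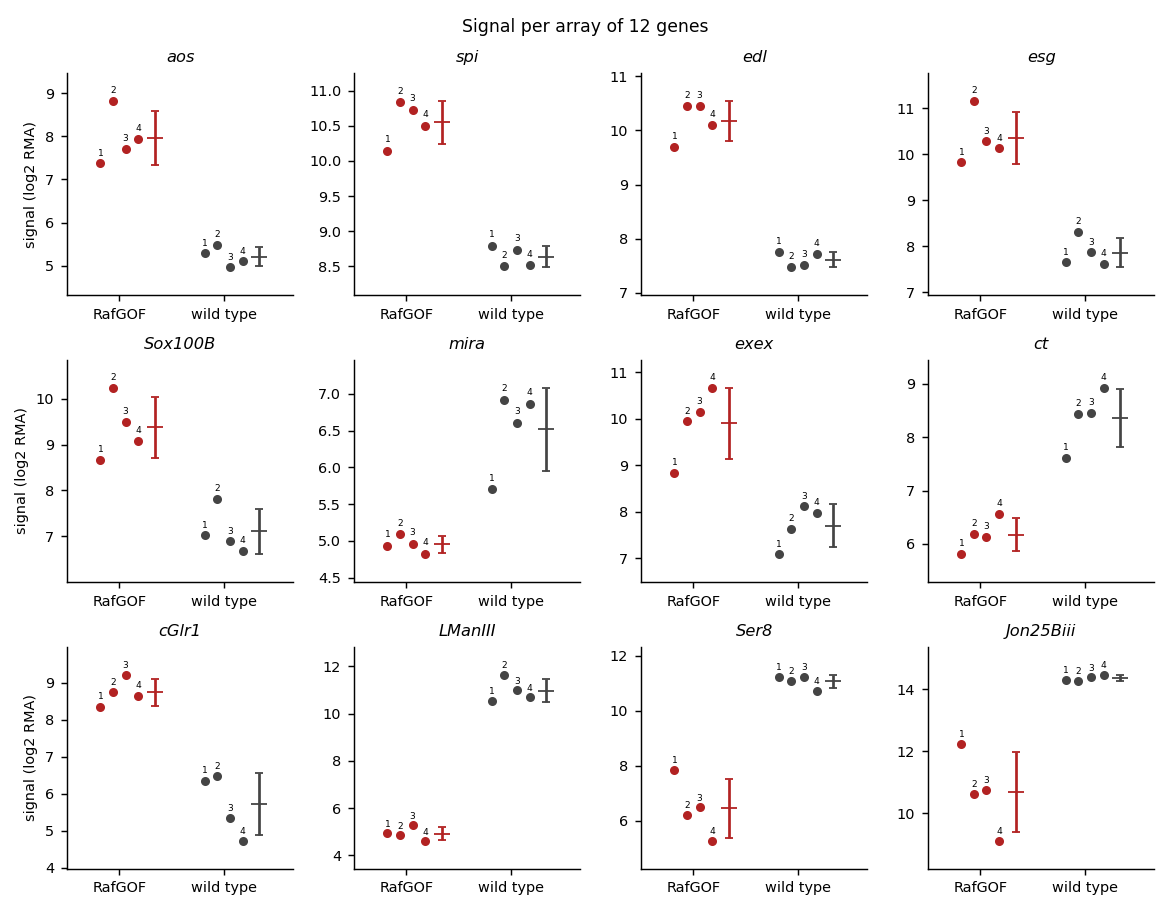
Signal (log2, vertical axis) of 12 genes on each array, RafGOF left and wild type right in each panel; points are arrays 1 to 4 of a group and the bar is the mean ± SD. In aos, spi, edl, esg, Sox100B, exex and cGlr1 all 4 RafGOF arrays lie above the wild type arrays, and in mira, ct, LManIII, Ser8 and Jon25Biii all lie below.

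Of 28 measured factors of stem cells and enteroblasts, 9 rose and 1 fell (15 and 2 with the replicate block), and the median difference was 0.42. Without the block 32.1% rose and 3.57% fell, against 14.9% and 10.1% of all genes. The signal of esg, a Snail family repressor that keeps progenitors undifferentiated, was 9.83, 11.16, 10.29 and 10.13 on the RafGOF arrays, against 7.65, 8.31, 7.87 and 7.61 on the wild type arrays. The lowest RafGOF array lay 1.52 above the highest wild type array, and esg rose by 2.49 ± 0.31 (5.63-fold, adjusted p = 4.35e-05). Sox100B, a SoxE factor of progenitors, had signals of 8.67, 10.24, 9.50 and 9.09 on the RafGOF arrays, against 7.02, 7.82, 6.89 and 6.69 on the wild type arrays. It rose by 2.27 ± 0.37 without overlap. Sox21a, a factor of enteroblast differentiation, rose by 1.0, and Delta, the Notch ligand that marks stem cells, by 1.15 ± 0.32 and by 1.78 on its second probe set. dome, the JAK/STAT receptor, rose by 1.31. klu, an enteroblast factor, rose by 0.69, but its other probe set did not (-0.10). The member that fell was mira, the adaptor that carries cell fate factors to one side of dividing neuroblasts, with signals of 4.93, 5.09, 4.96 and 4.82 on the RafGOF arrays, against 5.70, 6.91, 6.60 and 6.86 on the wild type arrays. It fell by 1.57 ± 0.20 (adjusted p = 4.32e-05), and all 4 RafGOF arrays were near log2 5. Stat92E (0.24), zfh2 (0.60), insc (0.67) and chinmo (0.10) did not pass. With the replicate block, zfh2 and insc were higher (adjusted p = 0.00592 and 0.000387, limma). Delta did not pass without RafGOF array 3 or wild type array 4 (adjusted p up to 0.0634).

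Of the 15 measured Notch target genes of the E(spl) and Brd families and related genes, 3 rose and 1 fell (14.9% and 10.1% of all genes), with a median difference of 0.08. E(spl)m3-HLH, a bHLH repressor, had signals of 10.58, 11.09, 11.03 and 10.51 on the RafGOF arrays, against 7.88, 7.18, 7.67 and 6.92 on the wild type arrays. The lowest RafGOF array lay 2.63 above the highest wild type array, and the gene rose by 3.39 ± 0.25 (10.5-fold, adjusted p = 4.55e-07). E(spl)malpha-BFM, a Bearded family protein, rose by 1.81 ± 0.24 and E(spl)mbeta-HLH by 1.24 ± 0.18. E(spl)m6-BFM fell by 0.28 at signals of 3.16 to 3.40 in RafGOF and 3.51 to 3.75 in wild type, near the lower end of the scale. The other 11, among them hry (0.35), dpn (0.08) and E(spl)m7-HLH (0.13), did not pass, and hry was higher with the replicate block (adjusted p = 0.0227, limma). Of 13 genes of the Notch pathway itself, 4 rose and 0 fell (5 and 2 with the replicate block, 2 and 0 without RafGOF array 3). fng, the glycosyltransferase that modifies Notch, rose by 2.23 ± 0.31 and the presenilin gene Psn by 0.94. kuz, the protease that cuts Notch after ligand binding, rose by 1.20, and Delta is named above. kuz did not pass without RafGOF array 3 or 4 or wild type array 1, 2 or 3 (adjusted p up to 0.132), and E(spl)m6-BFM did not pass without RafGOF array 2, 3 or 4 or wild type array 1, 2, 3 or 4 (adjusted p up to 0.152).

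Of 14 specification factors of enteroendocrine cells, 2 rose and 3 fell, or 14.3% and 21.4%, against 14.9% and 10.1% of all genes. sc, the proneural factor Scute that starts the enteroendocrine fate, had signals of 5.95, 6.22, 6.38 and 6.29 on the RafGOF arrays, against 5.14, 5.28, 5.28 and 5.30 on the wild type arrays, and rose by 0.96 ± 0.22. All 4 RafGOF arrays lay above the wild type arrays. esg, which is also in this list, is the other that rose. pros, the homeodomain protein that marks enteroendocrine cells, fell by 0.85 ± 0.16, with signals of 5.82, 5.78, 5.64 and 5.95 on the RafGOF arrays, against 6.88, 6.80, 6.49 and 6.42 on the wild type arrays. The groups did not overlap in pros. tap fell by 0.75 and Ptx1, a homeodomain factor, by 0.90. ac, ase, sens and dimm did not pass, with differences of -0.14, 0.06, -0.10 and -0.21. These genes, and tap as well, lay under log2 5 on all 8 arrays, where a change may not show.

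Among 14 peptide hormone genes, 1 rose and 3 fell (1 and 5 with the replicate block). Without the block this is 7.14% and 21.4%, against 14.9% and 10.1% of all genes. ITP, the ion transport peptide, had signals of 9.11, 9.63, 10.18 and 9.7 on the RafGOF arrays, against 7.77, 7.18, 7.45 and 7.74 on the wild type arrays and rose by 2.12 ± 0.33 (4.35-fold, adjusted p = 0.000237). It stood alone among the 14 in that direction. CCHa2 fell by 1.30, Nplp2 by 1.04 and AstC, allatostatin C, by 0.88 ± 0.24. RafGOF array 4 lay inside the wild type range of CCHa2. NPF (-0.42), Dh31 (-0.43), Orcokinin (-0.37), CCHa1 (-0.20) and Mip (-0.04) did not pass. NPF and Dh31 were lower with the replicate block (adjusted p = 0.0113 and 0.0470, limma). Of 12 genes of peptide processing and secretion, 0 rose and 3 fell, or 0% and 25% (1 and 3 genes with the replicate block). Pal2, an enzyme of peptide amidation, had signals of 5.85, 5.75, 5.43 and 5.43 on the RafGOF arrays, against 6.71, 7.53, 6.82 and 7.51 on the wild type arrays and fell by 1.53 ± 0.18. 7B2, the helper of the prohormone convertase amon, fell by 1.08 ± 0.20, and Rab3 by 0.62. The groups overlapped in Rab3, at dim signals of 3.57 to 4.69, and it did not pass without the arrays numbered 2 of all groups. amon itself did not pass (-0.27) and lay under log2 5 on all 8 arrays.

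Of 50 measured transcription factors of gut regions and of enterocytes, 4 rose and 11 fell, or 8.0% and 22.0%, against 14.9% and 10.1% of all genes. exex, a homeodomain factor, had signals of 8.84, 9.94, 10.15 and 10.66 on the RafGOF arrays, against 7.09, 7.64, 8.12 and 7.97 on the wild type arrays. All RafGOF arrays lay above wild type, array 4 highest, and exex rose by 2.20 ± 0.42 (adjusted p = 0.00133). The POU factor pdm2 rose by 1.55 ± 0.25, and esg and Sox21a, given above, are the remaining members that rose. ct, the homeodomain protein of the acid-secreting copper cells, had signals of 5.81, 6.18, 6.12 and 6.56 on the RafGOF arrays, against 7.61, 8.43, 8.45 and 8.93 on the wild type arrays and fell by 2.18 ± 0.25 (4.55-fold). Its 2 other probe sets did not pass, with differences of -0.33 and 0.04. cad, the posterior homeodomain factor, fell by 1.06 ± 0.18, odd by 1.16 ± 0.25 and dve, a homeodomain factor of the middle midgut, by 0.94. bab2 (-0.93), Ptx1 (-0.90), Kr-h1 (-0.84), tsh (-0.82), Hr39 (-0.63), Antp (-0.48) and bin (-0.45) also fell. bin and tsh are known from the visceral muscle layer and from tubules as well as from the gut wall. nub (0.30), the enterocyte POU factor, GATAe (-0.06), the endodermal GATA factor, and Hnf4 (-0.12) did not pass. The 2 other probe sets of bin and the 3 others of Hr39 did not pass. Kr-h1 did not pass without RafGOF array 1, 2 or 3 or wild type array 3 or 4 (adjusted p up to 0.158), and Antp did not pass without RafGOF array 1, 2 or 3 or wild type array 2 or 4 (adjusted p up to 0.105).

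Of 45 genes of DNA replication, 33 rose and 0 fell. Of 32 measured genes of helicase loading and the replication fork, 26 rose and 0 fell (14.9% and 10.1% of all genes), and the median difference was 1.16. PCNA, the sliding clamp, had signals of 10.02, 10.19, 10.51 and 10.18 on the RafGOF arrays, against 7.81, 7.23, 7.80 and 7.20 on the wild type arrays. The groups lay more than 2 apart, and PCNA rose by 2.71 ± 0.20 (6.56-fold, adjusted p = 4.55e-07). The helicase subunits dpa (2.23), Mcm5 (2.15) and Mcm2 (2.10) and the clamp loader subunits RfC4 (1.92) and RfC3 (1.86) rose 3.63- to 4.69-fold. RafGOF array 1 was the lowest RafGOF array in 17 of the 26 genes. Of 13 genes of deoxynucleotide supply and entry into S phase, 7 rose and 0 fell (9 and 1 with the replicate block). dUTPase, which keeps uracil out of DNA, had signals of 10.30, 10.57, 10.98 and 10.67 on the RafGOF arrays, against 7.98, 7.53, 7.57 and 7.49 on the wild type arrays and rose by 2.99 ± 0.23 (7.93-fold). The thymidylate synthase gene Ts rose by 2.41 ± 0.20, the ribonucleotide reductase gene RnrL by 2.30 ± 0.27, and Cdk2 by 1.14 ± 0.15. CycE, the cyclin of the start of S phase, had signals of 6.77, 7.61, 7.65 and 7.54 on the RafGOF arrays, against 4.68, 5.10, 5.30 and 4.46 on the wild type arrays and rose by 2.51 ± 0.27 (5.70-fold). E2f2 rose by 0.74, while CycD (0.01) and Cdk4 (-0.39), the cyclin and kinase of cell growth and G1, did not pass. Cdk4 was lower with the replicate block (adjusted p = 0.0463, limma).

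Of 77 mitotic genes, 50 rose and 0 fell, or 64.9% and 0%, against 14.9% and 10.1% of all genes. Of 11 cyclins, kinases and factors of mitotic entry, 6 rose and 0 fell. Cks30A, which binds Cdk1, had signals of 7.07, 7.13, 7.34 and 7.62 on the RafGOF arrays, against 4.57, 4.48, 4.06 and 3.99 on the wild type arrays. Each RafGOF array was above log2 7 and no wild type array above 4.57, a rise of 3.01 ± 0.21 (8.08-fold, adjusted p = 2.82e-07). CycB, the mitotic cyclin, rose by 2.05 ± 0.26. Of 11 genes of the chromosomal passenger complex, the spindle midzone and cytokinesis, 10 rose (median 1.58), and sau did not pass (0.12). borr, the passenger subunit Borealin, had signals of 7.57, 8.17, 8.11 and 8.04 on the RafGOF arrays, against 4.82, 5.05, 4.99 and 4.96 on the wild type arrays and rose by 3.02 ± 0.29 (8.12-fold). Its partners Incenp (1.89 ± 0.27), Det (1.60 ± 0.17) and aurB (1.58 ± 0.18) rose with it, as did scra, the anillin of the cleavage furrow (2.50 ± 0.24), and feo of the midzone (2.03 ± 0.26). Of 28 checkpoint, kinetochore and chromatid separation genes, 17 rose and 0 fell, among them pim, the fly securin (1.74 ± 0.21), Nuf2 (1.74 ± 0.27) and mad2 (1.51 ± 0.23). Of 28 spindle, centrosome and chromosome structure genes, 18 rose and 0 fell. In this list His2Av, a histone variant, rose by 2.29 ± 0.17, the augmin subunits wac and msd5 by 1.93 and 1.78, and ncd, a minus-end motor, by 1.74.

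Of 112 genes of the nucleolus, nuclear transport, translation factors, the chaperonin and the proteasome, 72 rose and 0 fell, against 14.9% and 10.1% of all genes. Of 28 genes of the nucleolus and of RNA polymerases I and III, 15 rose and 0 fell (20 and 0 with the replicate block). Surf6, a nucleolar protein, had signals of 8.66, 8.79, 8.9 and 8.89 on the RafGOF arrays, against 7.28, 7.35, 7.15 and 7.04 on the wild type arrays and rose by 1.61 ± 0.13. Fib, fibrillarin, rose by 1.36 ± 0.12, Nph, the fly nucleophosmin, by 1.49 ± 0.14 and the dyskerin gene Nop60B by 1.08 ± 0.14. Of 31 genes of nuclear import and pores, 22 rose and 0 fell (median 0.69). Pen, an importin alpha, had signals of 8.27, 9.61, 8.36 and 8.43 on the RafGOF arrays, against 5.27, 5.83, 4.98 and 4.76 on the wild type arrays and rose by 3.46 ± 0.37 (11.0-fold). RanGAP, the GTPase-activating protein of Ran, rose by 2.08 ± 0.26 and the pore subunits Nup133, Nup205 and Nup62 by 1.08, 1.01 and 0.96. Array 2 was the highest RafGOF array in Pen, RanGAP and these pore subunits, and wild type array 2 the highest wild type array in them.

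Of 34 genes of the CCT chaperonin and the proteasome, 29 rose and 0 fell, and the largest difference was 0.94 ± 0.18 in Prosalpha4. RafGOF array 1 was the lowest RafGOF array in 27 of the 29. Of 69 mitochondrial ribosomal protein genes, 52 rose and 0 fell, with a median difference of 0.48. mRpL44, the largest, had signals of 9.41, 9.7, 9.58 and 9.33 on the RafGOF arrays, against 8.61, 8.45, 8.70 and 8.40 on the wild type arrays and rose by 0.96 ± 0.12. Of 41 cytoplasmic ribosomal protein genes, 8 rose and 0 fell, or 19.5% that rose against 14.9% of all genes (15 and 1 with the replicate block, 2 to 8 without single arrays, lowest without RafGOF array 3 or wild type array 2), and the median was 0.18. In 24 of the 41 all 4 RafGOF arrays lay above all 4 wild type arrays, against 15.6% of all genes, and in 1 below them. RpLP0-like, the largest of them, rose by 0.87. The 41 genes were taken by symbol, and this symbol marks a gene that resembles RpLP0 and may not belong to the family. Of 19 translation factors, 6 rose and 0 fell, among them eEF1delta (0.67) and eIF6 (0.63). Of 32 aminoacyl-tRNA synthetases, 3 rose (9.38%) and 0 fell, all 3 mitochondrial (ProRS-m, AsnRS-m and ValRS-m, 0.49, 0.48 and 0.44), and 18 rose and 2 fell with the replicate block. ValRS-m did not pass without RafGOF array 2 or 3 or wild type array 1 or 4 (adjusted p up to 0.0983). Of 71 genes of oxidative phosphorylation, 3 rose and 2 fell (4 and 4 with the replicate block), or 4.23% and 2.82%, against 14.9% and 10.1% of all genes.

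**Figure D3:**
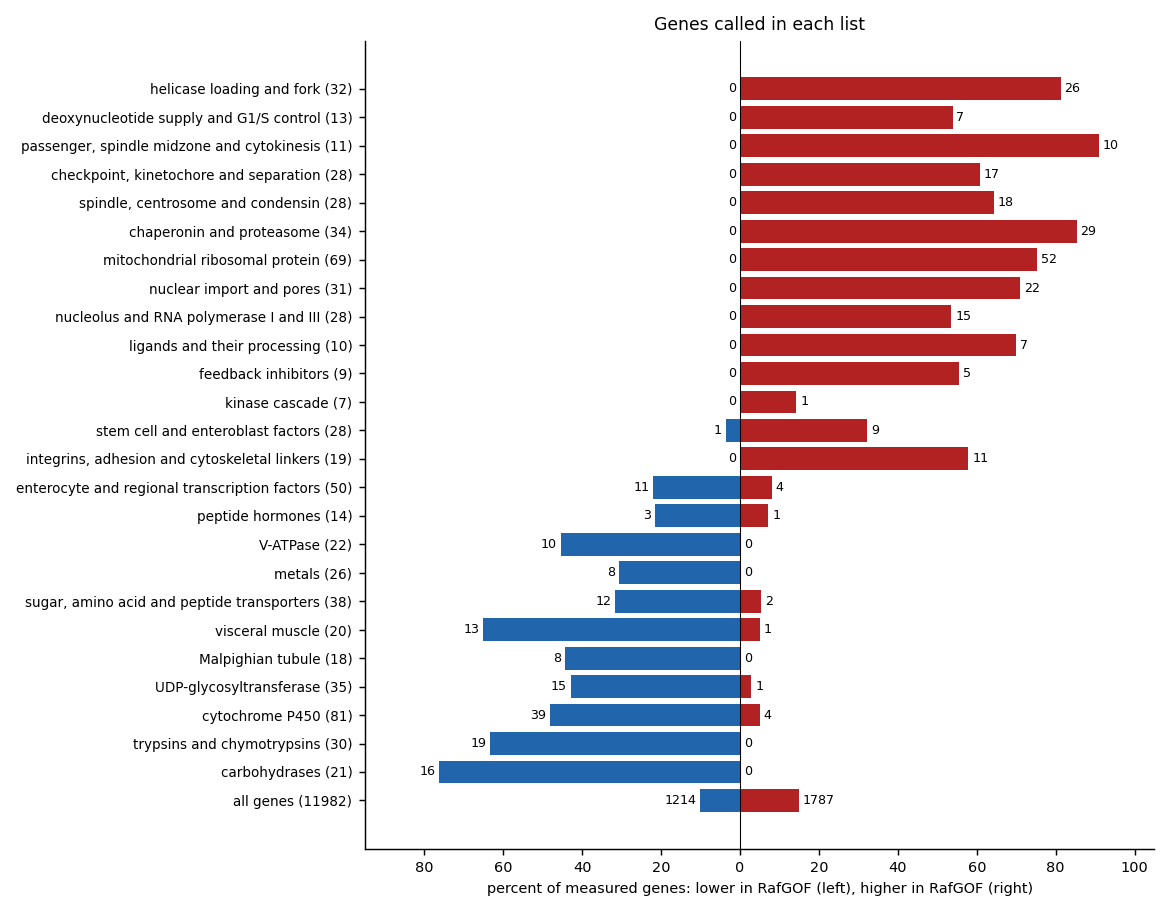
Percent of the measured genes of 25 gene lists, and of all genes, that were lower (bars to the left) or higher (bars to the right) in RafGOF; the number beside each list is that of its measured genes. Replication, mitosis and growth lists reach to the right, and digestive enzyme and detoxification lists to the left.

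Of 117 genes of digestion and the gut lining, 10 rose and 51 fell, or 8.55% and 43.6%, against 14.9% and 10.1% of all genes. Many of these genes had high wild type signals. Of 30 trypsins and chymotrypsins, 0 rose and 19 fell, with a median difference of -0.94. Jon25Biii, a serine protease of the Jonah family, had signals of 12.24, 10.63, 10.76 and 9.11 on the RafGOF arrays, against 14.29, 14.28, 14.38 and 14.46 on the wild type arrays. It fell by 3.67 ± 0.52 (12.7-fold), and its RafGOF arrays spread over more than 3 while its wild type arrays lay within 0.19. Ser8, another serine protease, had signals of 7.85, 6.22, 6.48 and 5.25 on the RafGOF arrays, against 11.23, 11.08, 11.23 and 10.72 on the wild type arrays and fell by 4.61 ± 0.56 (24.5-fold, adjusted p = 3.19e-05). Jon25Bii fell by 4.27 ± 0.56, Jon44E by 3.72 ± 0.55 and Jon25Bi fell by 3.10 ± 0.43. RafGOF array 1 was the highest RafGOF array in 18 of the 19 genes that fell and array 4 the lowest in 11. Not all proteases were called: Jon65Aiii (-0.10), Jon65Aiv (-0.10), yip7 (0.01) and alphaTry (-0.16) did not pass, and these were chosen after their values were seen. Their signals were 14.33 to 14.69 on all arrays, near the highest signal of any probe set on an array (14.56 to 14.76). Whether a fall is hidden at that end of the scale was not tested. In alphaTry all 4 RafGOF arrays lay below the wild type arrays. The Jonah genes resemble one another, so probe sets may share RNA between copies and the split among them is uncertain.

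Of 21 carbohydrases, 0 rose and 16 fell (1 and 17 with the replicate block), and the median was -1.84. Without the block 76.2% fell, against 10.1% of all genes, and 14.9% of all genes rose. LManIII, an alpha-mannosidase of the lysosomal type, had the largest fall of all genes, with signals of 4.94, 4.86, 5.28 and 4.61 on the RafGOF arrays, against 10.55, 11.65, 10.99 and 10.69 on the wild type arrays. The RafGOF arrays lay near log2 5, within the lower part of the scale, and the difference was -6.05 ± 0.58 (66.2-fold, adjusted p = 4.75e-06). It was the only gene whose RafGOF arrays were all under log2 5.5 while its wild type arrays were all above 8, and 0 genes showed the opposite. Its relatives LManV (-3.64 ± 0.57), LManVI (-3.53 ± 0.49), LManI (-2.09) and LManII (-1.84) fell, and LManIV did not pass (-1.07, adjusted p = 0.0974, and 0.0404 with the replicate block, limma). LManI and LManII were named after their values were seen. tobi, an alpha-glucosidase whose gene responds to dietary protein and sugar, had signals of 7.65, 9.06, 8.37 and 7.32 on the RafGOF arrays, against 11.28, 12.09, 12.88 and 12.87 on the wild type arrays and fell by 4.18 ± 0.58 (18.2-fold). The maltases Mal-A3 and Mal-A4 fell by 3.45 ± 0.49 and 3.27 ± 0.41. Treh, trehalase, did not pass (0.06), nor did Mal-B1 (1.89 ± 0.79, adjusted p = 0.116, and 0.0398 with the replicate block), both named after their values were seen. Among 8 lysozymes, amidases and lectins, 1 rose and 3 fell: LysX rose by 2.25 with overlapping groups, and the amidase PGRP-SC2 fell by 1.97 ± 0.26. LManI did not pass without RafGOF array 4 or wild type array 2 (adjusted p up to 0.0589), LManII did not pass without RafGOF array 4 or wild type array 2 (adjusted p up to 0.0616), and LysX did not pass without RafGOF array 1, 3 or 4 or wild type array 2, 3 or 4 (adjusted p up to 0.150).

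**Figure D4:**
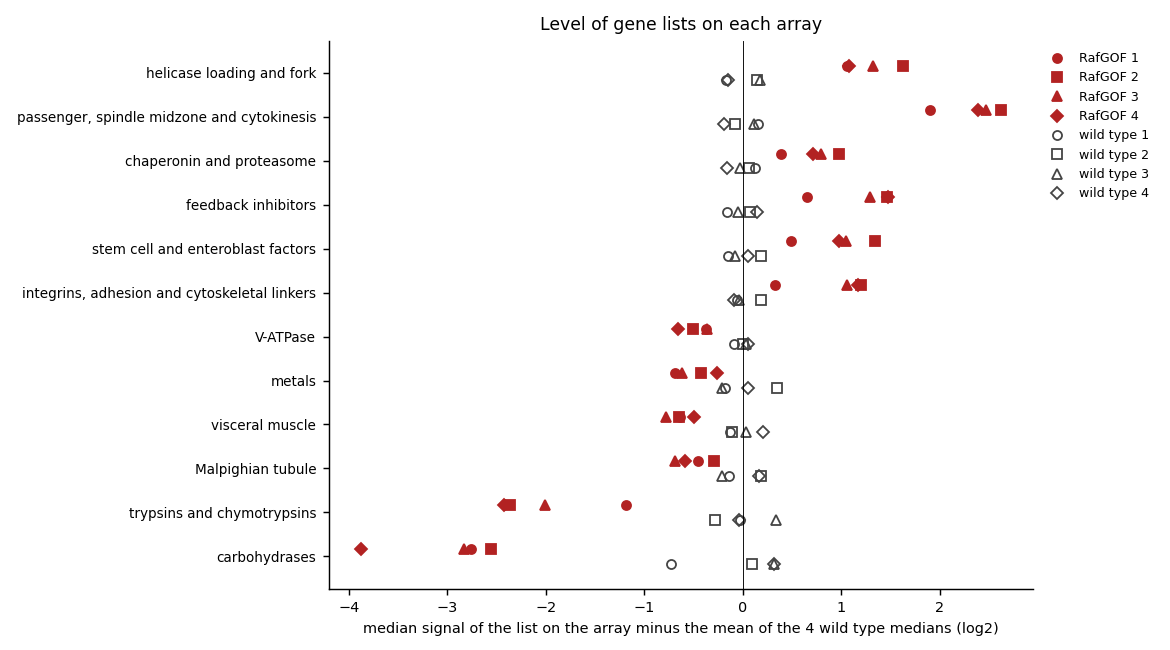
Median signal of 12 gene lists on each of the 8 arrays, minus the mean of the 4 wild type medians of that list (log2, horizontal axis); in each row the filled red symbols are the RafGOF arrays and the open symbols under them the wild type arrays, with 1 shape per array number. In the trypsin list RafGOF array 1 lies nearest to wild type, and in the carbohydrase list RafGOF array 2 lies nearest and array 4 farthest.

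Of 30 lipases and genes of lipid uptake, 5 rose and 12 fell (14 with the replicate block), or 16.7% and 40%, against 14.9% and 10.1% of all genes. ninaD, a scavenger receptor that takes up carotenoids, had signals of 9.11, 8.39, 8.22 and 4.53 on the RafGOF arrays, against 11.33, 12.45, 10.82 and 10.99 on the wild type arrays. RafGOF array 4 lay far below the other 3, and the fall was 3.83 ± 1.02. Lip3, a lipase, fell by 2.23 ± 0.31, magro (mag), the secreted gut lipase, by 1.70 and LpR1, a lipophorin receptor, by 1.73 ± 0.32. The Niemann-Pick type C2 genes split: Npc2a rose by 1.80 ± 0.22 and Npc2d fell by 2.53 ± 0.55. The groups did not overlap in either. Npc2c rose by 1.74 with overlapping groups, and the number that rose was 2 without RafGOF array 3 or 4 or wild type array 2 or 4, and 3 without wild type array 3. mag did not pass without RafGOF array 2, 3 or 4 or wild type array 1, 2, 3 or 4 (adjusted p up to 0.147), and Npc2c did not pass without RafGOF array 3 or 4 or wild type array 1, 2 or 4 (adjusted p up to 0.111).

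Of 28 genes of the peritrophic matrix, chitin synthesis and chitinases, 4 rose and 1 fell (4 and 2 with the replicate block), with a median difference of -0.12. The shares were 14.3% and 3.57%, against 14.9% and 10.1% of all genes. Among the 4 that rose, Cht4, a chitinase, had signals of 12.49, 13.09, 13.30 and 13.71 on the RafGOF arrays, against 10.17, 10.38, 9.20 and 9.66 on the wild type arrays and rose by 3.29 ± 0.60 (9.81-fold, adjusted p = 0.000948). Cht9 rose by 2.86 ± 0.40 (7.26-fold) and Cht2 by 2.0 ± 0.24, all 3 without overlap. Peritrophin-15b, a chitin-binding protein, rose by 1.33 ± 0.34, and Muc55B, a mucin, fell by 0.61. Muc55B did not pass without RafGOF array 2 or 4 or wild type array 1 or 2 (adjusted p up to 0.0857).

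Of 38 transporters of sugars, amino acids, peptides and organic anions, 2 rose and 12 fell (5 and 15 with the replicate block). These are 5.26% and 31.6%, against 14.9% and 10.1% of all genes. blot, a transporter of the neurotransmitter symporter family, rose by 2.46 ± 0.41, and the amino acid transporter JhI-21 by 1.09. MFS1 fell by 2.35 ± 0.38, slif, an amino acid transporter, by 2.14 ± 0.48 and the organic anion transporter Oatp58Db by 1.47 ± 0.31. Of 26 genes of metal transport and storage, 0 rose and 8 fell, or 0% and 30.8% (1 and 13 genes with the replicate block). Zip89B, a zinc transporter, fell most (-2.10 ± 0.33). The metallothioneins MtnA to MtnD did not pass. Of 22 genes of the V-ATPase and carbonic anhydrases, 0 rose and 10 fell, or 0% and 45.5% (18 fell with the replicate block). Vha100-5 and CAH2 fell by 1.25 ± 0.32 and 1.25 ± 0.20, and Vha44 by 0.74 ± 0.12 and Vha100-2 by 0.67 ± 0.16.

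Of 81 cytochrome P450 genes, whose enzymes modify foreign and internal compounds, 4 rose and 39 fell, with a median difference of -0.56. The shares were 4.94% and 48.1%, against 14.9% and 10.1% of all genes. Cyp6a8 had signals of 7.39, 6.71, 7.16 and 6.70 on the RafGOF arrays, against 10.10, 10.21, 9.57 and 9.80 on the wild type arrays and fell by 2.93 ± 0.18 (7.63-fold, adjusted p = 6.43e-08). Cyp4d1, the largest fall, had signals of 8.65, 7.60, 7.69 and 6.68 on the RafGOF arrays, against 11.24, 11.78, 11.57 and 11.73 on the wild type arrays and fell by 3.92 ± 0.42. Both genes were lower on every RafGOF array, and RafGOF array 4 was the lowest in 31 of the 43 genes called. Cyp309a1 fell by 3.21 ± 0.40 and Cyp6a9 fell by 3.07 ± 0.22. Against the direction of the family, Cyp4p1 had signals of 10.48, 10.54, 10.75 and 10.53 on the RafGOF arrays, against 7.81, 7.66, 7.79 and 7.99 on the wild type arrays and rose by 2.76 ± 0.17 (6.78-fold, adjusted p = 6.43e-08), and Cyp305a1 rose by 2.03. Of 35 UDP-glycosyltransferases, 1 rose and 15 fell (3 and 17 with the replicate block), led by Ugt49C1 (-2.86 ± 0.26) and Ugt302E1 (-2.42 ± 0.29). Of 34 glutathione S-transferases, 4 rose and 9 fell, or 11.8% and 26.5%, against 14.9% and 10.1% of all genes. GstD3 rose by 1.68 ± 0.23, while GstD5 of the same cluster fell by 1.82 ± 0.26. Copies of these 3 families resemble one another, and binding of RNA of one copy to the probes of another was not tested.

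Genes called in one direction lay side by side in places. Along the genome, in the gene order of a RefSeq annotation of Release 6, 37 runs of at least 4 neighbouring measured genes were called in one direction, of which 21 runs (100 genes) fell and 16 (72 genes) rose. The runs were found from the calls, so they are a description with no test, and the genes at their ends were named after their values were seen. The longest runs held 6 genes. One ran from Cyp6a23 to Cyp6a8 and fell with a median of -2.05, one from Cyp4e2 to Mal-A4 with -1.35, and one from CG8997 to Ance-2 with -1.64. LManI and LManII lay in a run of 5 genes that fell, from loh to RluA-1, with a median of -1.75. Among runs that rose were those from Rok to r (6 genes, 0.84), from Exo84 to Trmt61 (6 genes, 0.83) and from Ts to CG9643 (5 genes, 1.04). Neighbouring probe sets of like sequence may share RNA, as in the Cyp6a genes.

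**Figure D5:**
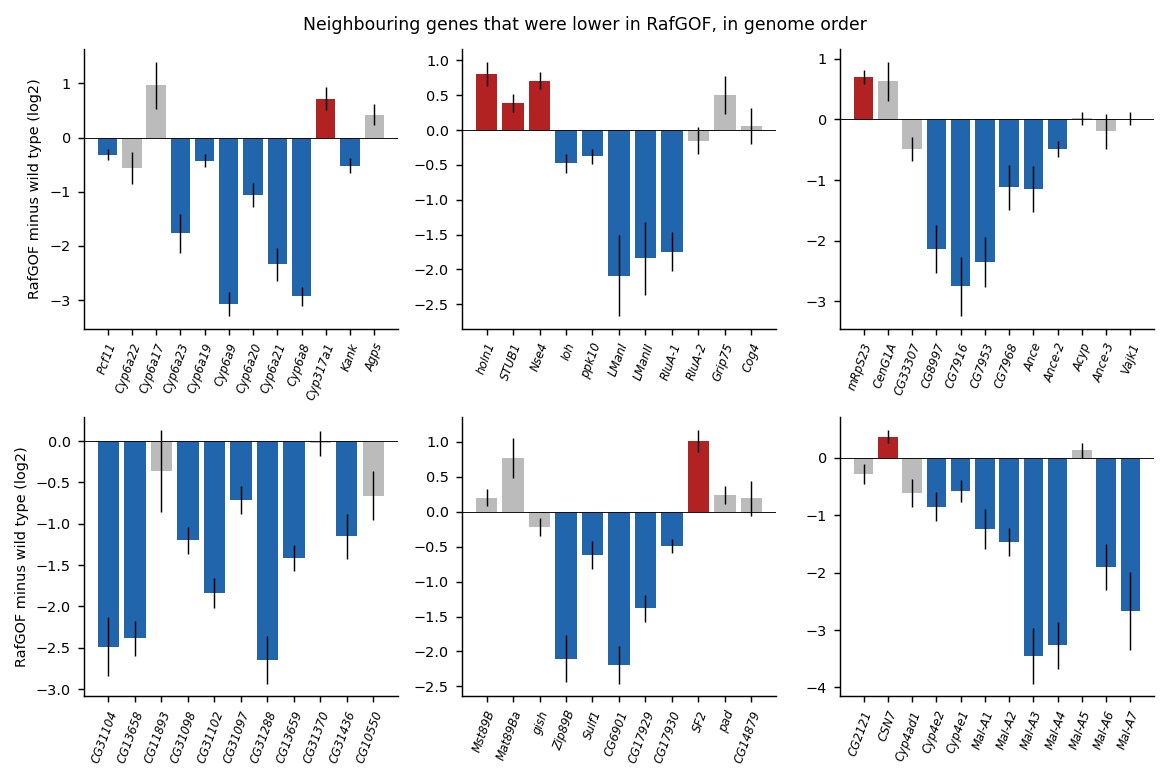
Difference (RafGOF minus wild type, log2, vertical axis) of neighbouring measured genes in genome order, in 6 panels; bars are differences with their SE, blue where the gene fell, red where it rose and grey where it did not pass. A run of genes that fell stops in each panel at the first grey or red bar on either side.

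Of 19 integrin subunits, adhesion proteins and linkers, 11 rose and 0 fell (14 and 1 with the replicate block, median 0.90). These are 57.9% and 0%, against 14.9% and 10.1% of all genes. scb, an integrin alpha subunit, had signals of 10.90, 11.97, 11.71 and 12.17 on the RafGOF arrays, against 8.70, 8.98, 8.71 and 9.42 on the wild type arrays and rose by 2.73 ± 0.28 (6.64-fold, adjusted p = 7.10e-06). The integrin beta subunit mys rose by 1.54 ± 0.29, the alpha subunit mew by 1.50 ± 0.29, ItgaPS4 by 1.64 ± 0.32 and vinculin (Vinc) by 1.41 ± 0.22. In these integrin genes RafGOF array 1 was the lowest of its group. Of 28 actin, tubulin and motor genes, 12 rose and 0 fell, or 42.9% and 0%. betaTub60D, a beta-tubulin, had signals of 11.51, 13.47, 12.59 and 12.79 on the RafGOF arrays, against 9.11, 9.86, 8.54 and 8.82 on the wild type arrays and rose by 3.51 ± 0.48 (11.4-fold). cher, the fly filamin, had signals of 9.80, 10.74, 11.07 and 11.35 on the RafGOF arrays, against 7.01, 7.05, 7.74 and 7.52 on the wild type arrays and rose by 3.41 ± 0.45 (10.6-fold). Neither gene overlapped between the groups. cib, an actin-binding protein with thymosin repeats, rose by 1.93 ± 0.39 and ena, which extends actin filaments, by 1.38.

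Of 26 junction and polarity genes, 6 rose and 0 fell (12 and 2 with the replicate block), or 23.1% that rose against 14.9% of all genes. l(2)gl, a polarity gene, had signals of 10.43, 11.17, 11.03 and 11.35 on the RafGOF arrays, against 7.57, 7.10, 9.38 and 9.46 on the wild type arrays and rose by 2.62 ± 0.43, and the wild type arrays fell into a lower and a higher pair. Nrg, a septate junction adhesion protein, rose by 1.84 ± 0.38, the E-cadherin gene shg by 1.07 ± 0.20 and Ssk, a protein of smooth septate junctions, by 0.89 ± 0.18. Of 19 genes of the basement membrane and its enzymes, 5 rose and 0 fell. Mmp2, a matrix metalloprotease, had signals of 7.48, 8.40, 8.38 and 7.96 on the RafGOF arrays, against 5.44, 6.24, 5.49 and 5.65 on the wild type arrays and rose by 2.35 ± 0.31 (5.10-fold), whereas its other, dim probe set did not pass (-0.06). The inhibitor Timp rose by 1.04 and the laminin subunits LanA and LanB1 by 0.91 and 0.79. The matrix count was 2 without RafGOF array 2 or wild type array 3 or 4, and 3 without RafGOF array 3 or 4 or wild type array 1. Timp did not pass without RafGOF array 2, 3 or 4 or wild type array 1, 3 or 4 (adjusted p up to 0.0768), and LanB1 did not pass without RafGOF array 2 or wild type array 3 or 4 (adjusted p up to 0.0983).

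Of 17 insulin and TOR genes, 4 rose and 2 fell (2 rose without RafGOF array 4), or 23.5% and 11.8%, against 14.9% and 10.1% of all genes. ImpL2, which binds insulin-like peptides and holds back their signal, had signals of 10.83, 11.96, 11.64 and 12.66 on the RafGOF arrays, against 9.68, 10.49, 8.69 and 9.06 on the wild type arrays and rose by 2.29 ± 0.48. InR, the insulin receptor, had signals of 9.24, 10.22, 9.95 and 10.13 on the RafGOF arrays, against 7.99, 8.53, 7.70 and 8.06 on the wild type arrays and rose by 1.82 ± 0.25 (3.52-fold). The RafGOF arrays lay above wild type in both. Akt rose by 1.02 with overlapping groups. Of 8 JAK/STAT genes, 3 rose and 0 fell: dome, the ligand gene upd1 (0.82, at a signal of 5.29 or less on every array) and Socs44A (0.78), while upd2 did not pass (0.12). Of 24 genes of the Wnt, Hedgehog, BMP and activin pathways, 1 rose and 4 fell (5 and 5 with the replicate block). dpp, a BMP, fell by 0.84 with overlapping groups, its inhibitory target Dad by 0.58 ± 0.12, the activin-like ligand daw by 1.13 and the receptor wit by 0.98, while the BMP gbb rose by 0.61. Without RafGOF array 2 only 2 of them fell. daw did not pass without RafGOF array 2 or 3 or wild type array 3 (adjusted p up to 0.0687), dpp did not pass without RafGOF array 2 or wild type array 4 (adjusted p up to 0.0662), and Akt did not pass without RafGOF array 4 (adjusted p up to 0.0542). Of 16 Hippo and Fat genes, 5 rose and 1 fell (8 and 1 with the replicate block), among them CycE and the upstream component ex (0.82).

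Cell death and engulfment genes split: of 16, 5 rose and 4 fell, or 31.2% and 25%, against 14.9% and 10.1% of all genes. Damm, a caspase, had signals of 12.86, 13.08, 13.26 and 13.10 on the RafGOF arrays, against 11.46, 11.37, 11.69 and 11.78 on the wild type arrays and rose by 1.50 ± 0.15. drpr, the engulfment receptor Draper, rose by 1.41 ± 0.23 and Dark, the fly Apaf-1, by 1.23 ± 0.24, while the second, dim probe set of Dark did not pass (-0.12). The effector caspase Dcp-1 fell by 0.78, the Bcl-2 family gene Buffy by 1.31 ± 0.23 and the engulfment receptor NimC4 by 1.50 ± 0.18. The groups did not overlap in any of these 6 genes. The number that rose was 3 without RafGOF array 2 or 3 or wild type array 1, 3 or 4, and the number that fell was 2 without RafGOF array 4 or wild type array 2. Dcp-1 did not pass without RafGOF array 4 or wild type array 2 (adjusted p up to 0.0639).

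Of 30 genes of recognition and of IMD and Toll signalling, 7 rose and 6 fell, or 23.3% and 20%, against 14.9% and 10.1% of all genes. cGlr1, a receptor for double-stranded RNA that acts upstream of Sting, had signals of 8.36, 8.75, 9.22 and 8.65 on the RafGOF arrays, against 6.36, 6.49, 5.35 and 4.73 on the wild type arrays and rose by 3.01 ± 0.45 (8.06-fold, adjusted p = 0.000172). Sting rose by 0.66, and was named after its value was seen. Srg2, a gene named for its regulation by Sting, had signals of 8.59, 9.03, 8.79 and 9.89 on the RafGOF arrays, against 13.49, 13.62, 12.03 and 12.34 on the wild type arrays and fell by 3.80 ± 0.39 (13.9-fold). The directions of cGlr1 and Srg2 were thus opposite on all arrays. 18w, a Toll family receptor, rose by 1.53 ± 0.15, and the negative regulators of the IMD pathway PGRP-LB and pirk fell by 1.54 ± 0.22 and 1.74 ± 0.36, the second with overlapping groups. Of 14 antimicrobial peptide genes, 1 rose and 0 fell (2 and 2 with the replicate block). It was Drsl3, a drosomycin-like peptide, with signals of 9.64, 9.42, 10.19 and 11.41 on the RafGOF arrays, against 8.54, 6.49, 6.68 and 7.40 on the wild type arrays and a difference of 2.89 ± 0.59. The list did not move as one on the 4 arrays: against the mean wild type median, its median was -0.425, -0.853 and -0.717 on RafGOF arrays 1 to 3 and 1.05 on array 4. Of the 25 redox genes 4 rose and 7 fell, or 16% and 28%. Prx6c, a peroxiredoxin, rose by 2.43 ± 0.29, and Gclc and Gclm, the subunits that start glutathione synthesis, fell by 1.10 ± 0.19 and 0.95 ± 0.19.

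Of 17 glycolysis genes, 0 rose and 7 fell (1 and 10 with the replicate block), Pgm1 by 1.37 ± 0.37 and Pgi by 0.99 ± 0.23. Idh, an isocitrate dehydrogenase, had signals of 11.48, 11.30, 11.10 and 10.66 on the RafGOF arrays, against 12.71, 13.28, 12.71 and 12.72 on the wild type arrays and fell by 1.72 ± 0.27 (3.29-fold, adjusted p = 0.000314). It was 1 of 2 that fell among 12 citric acid cycle genes (4 fell with the replicate block). All 4 RafGOF arrays lay more than 1 below wild type. Of 17 genes of lipolysis and fatty acid oxidation, 1 rose and 7 fell (4 fell without RafGOF array 4 or wild type array 2), among them the peroxisomal oxidase Acox57D-d (-1.66 ± 0.17) and whd, the carnitine palmitoyltransferase (-1.31 ± 0.19). Of 26 genes of nucleotide, folate and polyamine synthesis, 8 rose and 3 fell (12 and 4 with the replicate block): Ts, SpdS (0.87) and Prat (0.86) rose, and pug fell by 1.83 ± 0.27. Of 27 lysosome and autophagy genes, 5 rose and 1 fell (12 and 2 with the replicate block), among them Npc2a and Atg12 (1.20 ± 0.18). The shares were 18.5% and 3.7%, against 14.9% and 10.1% of all genes. Of 20 COPI, COPII and Golgi genes, 4 rose and 1 fell (7 and 2 with the replicate block), or 20% and 5%, led by zetaCOP (1.48 ± 0.25), a COPI coat subunit.

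Genes of tissues that lie on or near the midgut were measured as well. Of 20 visceral muscle genes, 1 rose and 13 fell (median -0.67), or 5% and 65%, against 14.9% and 10.1% of all genes. The sum of their linear signals was 16497 to 23491 in RafGOF and 24578 to 29251 in wild type. Obsc fell by 0.93 ± 0.18 and bt, the giant muscle kinase, by 0.84 ± 0.16, while Zasp52, a Z-disc protein, rose by 1.30 ± 0.32. Of 18 Malpighian tubule genes, 0 rose and 8 fell (1 and 10 with the replicate block), with sums of 6918 to 20928 in RafGOF and 10729 to 19280 in wild type. Cyp6g1 and Oatp58Db of this list are P450 and transport genes counted above. Of 13 fat body genes, 0 rose and 3 fell, with sums of 2120 to 3640 in RafGOF and 2460 to 8041 in wild type, and fon fell by 2.0 ± 0.44. Of 17 hemocyte genes 0 rose and 1 fell, of 10 tracheal genes 1 rose and 2 fell, of 22 ovary genes 1 rose and 0 fell, and of 18 neuron genes 0 rose and 0 fell. With the replicate block 3 hemocyte genes and 2 ovary genes fell and 1 neuron gene rose. 8 of the 22 ovary genes and 9 of the 18 neuron genes lay under log2 5 on all 8 arrays, as did 1 of the muscle, 2 of the tubule and 1 of the fat body genes. The part of muscle, tubule or fat body RNA in the differences of the gut genes was not tested.

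The 15 largest rises and 15 largest falls among named genes without overlap include several not yet given. Rnf11, a RING finger protein, had signals of 9.81, 9.93, 9.73 and 10.30 on the RafGOF arrays, against 6.54, 6.89, 5.78 and 6.52 on the wild type arrays and rose by 3.51 ± 0.20 (11.4-fold), and on its other probe set by 1.71. babos and Erasp rose by 3.35 ± 0.27 and 3.30 ± 0.43. kon, an NG2-like transmembrane protein, rose by 2.98 ± 0.30, and Vrp1, verprolin, by 2.93 ± 0.32. All the other genes of these 30 are given with their groups. CG16826 had the largest difference of any gene that did not pass, and was named after its values were seen. Its signals were 13.61, 10.47, 5.26 and 11.60 on the RafGOF arrays, against 4.50, 4.99, 4.23 and 4.16 on the wild type arrays. It differed by 5.77 ± 2.05 (adjusted p = 0.0631, and 0.0216 with the replicate block), high on 3 of the 4 RafGOF arrays and near wild type on array 3.

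Some of these genes had other levels where Notch was also changed. The examples below follow no set rule, and other named genes passed as well. Cyp4p1 differed from RafGOF by -2.61 in RafGOF NotchDN and -1.80 in RafGOF NotchIC, and Cyp6a9 by 1.67 and 2.13. The comparisons share the RafGOF arrays, so the values are only set side by side. LManIII averaged 5.65 ± 0.75 in RafGOF NotchDN and 9.95 ± 1.59 in RafGOF NotchIC, against 4.92 ± 0.27 in RafGOF (SD, n = 4). The adjusted p was 0.904 for RafGOF NotchDN minus RafGOF and 0.000272 for RafGOF NotchIC minus RafGOF. Srg2 averaged 8.84 ± 0.69 in RafGOF NotchDN and 12.01 ± 0.33 in RafGOF NotchIC, against 9.07 ± 0.57 in RafGOF (SD, n = 4), with an adjusted p of 0.000908 for RafGOF NotchIC minus RafGOF. Pen averaged 10.56 ± 0.66 in RafGOF NotchDN and 5.55 ± 0.59 in RafGOF NotchIC, against 8.67 ± 0.63 in RafGOF (SD, n = 4), and both differences passed (adjusted p = 0.0206 and 0.000374). Cks30A averaged 9.61 ± 0.22 in RafGOF NotchDN and 4.72 ± 0.46 in RafGOF NotchIC, against 7.29 ± 0.25 in RafGOF (SD, n = 4) and borr 9.28 ± 0.39 in RafGOF NotchDN and 5.80 ± 0.77 in RafGOF NotchIC, against 7.97 ± 0.27 in RafGOF (SD, n = 4), with adjusted p-values of 3.98e-05 and 7.21e-06 in Cks30A and 0.0413 and 0.000908 in borr. In Pen, Cks30A and borr, RafGOF NotchDN lay above RafGOF and RafGOF NotchIC below it. Jon25Biii averaged 13.37 ± 0.49 in RafGOF NotchDN and 12.84 ± 0.90 in RafGOF NotchIC, against 10.69 ± 1.28 in RafGOF (SD, n = 4), higher than RafGOF in both Notch groups (adjusted p = 0.0181 and 0.0400). kon averaged 7.19 ± 0.59 in RafGOF NotchDN and 8.65 ± 0.33 in RafGOF NotchIC, against 9.24 ± 0.61 in RafGOF (SD, n = 4), lower in RafGOF NotchDN (adjusted p = 0.00263). Without 1 RafGOF array, the difference of RafGOF NotchDN from RafGOF did not pass for borr with any of the 4 left out (adjusted p = 0.0657 to 0.105) or for Pen with 3 of them left out (0.0567 to 0.0779). Jon25Biii did not pass with 1 left out for RafGOF NotchDN (0.0571) and with 3 for RafGOF NotchIC (0.0745 to 0.110). Without the arrays numbered 2 of all groups, Jon25Biii passed neither for RafGOF NotchDN nor for RafGOF NotchIC (adjusted p = 0.0910 and 0.298, limma). With median centring, borr did not pass for RafGOF NotchDN (adjusted p = 0.0875, limma).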

How the data were processed

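RNA from midguts of females was taken up in a Trizol-type reagent, made into biotinylated cRNA with a kit that starts at the 3' end, and measured on Affymetrix Drosophila Genome 2.0 arrays, as the labels' protocols give it. The authors deposited log2 signals made with RMA, per the submitters' processing notes, for 18952 probe sets, and its version is not given in the sources used here. No further normalization was applied. The analysis covers 18769 probe sets, without the 183 controls of the manufacturer. Symbols came from the platform annotation, updated through RefSeq (Release 6 assembly): 13647 probe sets had 1 symbol, 5122 had several or none. A gene is represented by its brightest probe set, by the mean of all 16 arrays (11982 genes, 1094 of them with over 1 probe set).

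A limma model (version 3.58.1, R 4.3.3) of the 4 group means used all 16 arrays, which leaves 12 residual degrees of freedom, with eBayes. A call is a two-sided p under 0.05 after Benjamini-Hochberg adjustment over 18769 probe sets. The SE of a difference is the moderated one of this fit. Precision is limited by how many arrays there are.

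The members, the 58 gene lists and the 14 families, which have 1138 measured genes in the lists, were chosen with earlier results of these data known, and a few entries were removed or patterns narrowed after values were seen. Lists are described by counts and medians beside those of all genes, with no test. A rule set which genes the text may name. They are the 15 largest rises and falls without overlap, and up to 6 called members of a list by size. Where 8 or fewer members of a list were called, all are allowed. Any member of the MAPK, progenitor, Notch target, enteroendocrine and regional factor lists is allowed too. So are the 3 largest changes each way of a family, and the genes with the highest wild type signal among those called. The text names only some of these genes, with no stated rule for the choice among them.

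Deviations from the group means of same-numbered RafGOF and wild type arrays correlated at 0.308, 0.594, 0.127 and 0.213 for the numbers 1 to 4. All were above the minimum of 0.1 used for a block. Arrays of unlike number also passed it: RafGOF 1 with wild type 3 (0.24), RafGOF 3 with wild type 4 (0.225) and RafGOF 4 with wild type 1 (0.131). Number 2 stood well clear of these, and a pairing by the other numbers is not established. What a number stands for is not stated. A fit with the number as a block, over all 16 arrays, stands beside named genes whose call it changes and list counts it moves by over 1.5 times. Alternatives were only the 8 arrays, the block in both fits, a filter on dim probe sets, quantile normalization, median centring, array weights, eBayes with trend, the mean of a gene's probe sets, no arrays numbered 2, and each array left out.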

Additional observations from a re-analysis of the deposited data

Results flagged for a closer look

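Dixon's ratio, the gap of 1 array from the nearest other as a share of the range, was taken in 524 groups of 4 arrays. They were 2 for each of 262 genes named in the text, and some named genes were not among these. In 24 of the 524 groups the ratio exceeded Dixon's critical value for 4 values. That is 4.58%, and chance gives about 1 in 20. On RafGOF array 1, CycE low at 6.77 (others 7.54 to 7.65), PGRP-SC2 high at 12.11 (others 10.87 to 10.95) and insc low at 7.44 (others 8.15 to 8.23) stood apart. On RafGOF array 2, Egfr high at 7.54 (others 6.74 to 6.75), Pen high at 9.61 (others 8.27 to 8.43) and ncd high at 8.96 (others 7.96 to 8.04) stood apart. The same array, RafGOF array 2, also had pyr high at 6.26 (others 6.03 to 6.06). On RafGOF array 4, CCHa1 high at 8.02 (others 7.17 to 7.28), CCHa2 high at 9.44 (others 8.14 to 8.23) and Dcp-1 low at 6.89 (others 7.75 to 7.85) stood apart. On wild type array 1, LManIV low at 4.46 (others 5.09 to 5.20), Vha100-2 low at 11.82 (others 12.12 to 12.15) and dUTPase high at 7.98 (others 7.49 to 7.57) stood apart. The same array, wild type array 1, also had sc low at 5.14 (others 5.28 to 5.30). On wild type array 2, 7B2 low at 8.05 (others 8.52 to 8.60), Dcp-1 high at 8.65 (others 8.24 to 8.29) and Idh high at 13.28 (others 12.71 to 12.72) stood apart. The same array, wild type array 2, also had cib low at 9.93 (others 11.17 to 11.40), fred high at 5.43 (others 4.81 to 4.89) and kek5 high at 8.77 (others 7.95 to 8.06). The same array, wild type array 2, also had yip7 low at 14.42 (others near 14.46). On wild type array 3, nub low at 10.49 (others 10.96 to 11.01) and pirk low at 10.20 (others 11.41 to 11.61) stood apart. On wild type array 4, Krn high at 8.0 (others 7.76 to 7.80) stood apart. Array 2 of either group was the array in 11 of the 24.

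Data outside the comparisons also held a difference. The 3' control probe set for actin, one of the Affymetrix control probe sets that were set aside, averaged 12.73 ± 0.376 in RafGOF and 11.16 ± 0.444 in wild type (SD, n = 4 arrays each, log2), and its range was 12.17 to 12.97 in RafGOF and 10.71 to 11.57 in wild type, without overlap. The 3' minus 5' differences of the control probe sets for eIF-4a were 1.18 to 2.24 in RafGOF and 1.57 to 1.93 in wild type. Those of actin itself were 0.700 to 1.95 in RafGOF and 0.95 to 1.42 in wild type, and those of GAPDH 1.20 to 2.10 in RafGOF and 1.17 to 1.75 in wild type. The 3' signal of GAPDH averaged 12.57 ± 0.111 in RafGOF and 12.85 ± 0.0932 in wild type (SD, n = 4 arrays each).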

How the results depend on the processing

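The counts of probe sets, 2104 higher and 1474 lower, were 3220 and 2289 with the replicate number as a block over all 16 arrays, and 3279 and 2850 with array weights. All other settings listed in the processing moved them by less than 1.5 times. Leaving out each of the 8 arrays in turn gave 1693 to 2266 higher and 1195 to 1614 lower, and, at 2-fold or more, 487 to 681 higher and 552 to 646 lower, against 552 and 592 with all arrays. Of the 1138 list genes, 292 rose and 177 fell, against 392 and 241 with the block and 241 to 317 and 149 to 177 with 1 array left out. These checks covered 262 named genes. TotC, Mtk, whe, Cyp6g1, the metallothioneins and most genes at the ends of the neighbour runs were not among them. None of the 262 changed its direction with a call in any setting. Of the 214 called genes among the 262, 179 passed in every setting and 25 did not pass without at least 1 array. The block ended none of these calls over all 16 arrays and 3 in the fit of only the 8 arrays, and it added 11 and 9 calls among the other 48, as did array weights with 11. Leaving out the arrays numbered 2 ended 21, only the 8 arrays 9, median centring 5, quantile normalization 4, and array weights and eBayes with trend 1 each. Taking the mean of a gene's probe sets ended 6 of the 30 for which it could be done. Dim probe sets limit what can be seen in the enteroendocrine specification factors, ovary and neuron genes, many of which lay near the lower end of the scale.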

Other observations

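RafGOF arrays differed among themselves in more genes than wild type arrays did. The SD over 4 arrays was above 1 in 109 genes of RafGOF and in 47 of wild type, and the median SD was 0.206 in RafGOF and 0.175 in wild type. In 73 of the 109 genes RafGOF array 4 was the array farthest from the other 3, and it was the higher one in 56. TotC, a stress-induced humoral factor, had signals of 5.70, 5.35, 6.53 and 11.34 in RafGOF, against 5.57, 6.57, 4.87 and 7.39 in wild type. Mtk, the antimicrobial peptide metchnikowin, had signals of 6.28, 5.40, 5.85 and 9.66 in RafGOF, against 6.21, 6.74, 5.59 and 5.27 in wild type. Both were high on RafGOF array 4 alone, neither passed, and both were named after their values were seen. The gene whe, whose signals were 13.81, 10.54, 7.60 and 11.33 in RafGOF, against 7.87, 7.35, 7.81 and 7.42 in wild type, was highest on RafGOF array 1, as was CG16826, and lowest on RafGOF array 3.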
